A study of Mus musculus with 8 samples.

Results

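The genotype by injury interaction was the difference between the response of c-Jun mutant sciatic nerve to transection and the response of control nerve, computed gene by gene. It was taken from the sample titles as mutant cut minus mutant uncut, less control cut minus control uncut, and it used all 8 arrays of the 8 in the series. Of 18193 genes with a probe set, 12093 passed a filter on signal and were tested, and 20 were called (limma, two-sided, Benjamini-Hochberg adjusted p under 0.05), which is 0.165% of the genes tested. Of these 20 genes, 11 had an injury response that was blunted in the mutant, 6 lost it, 2 reversed it and 1 gained one, while none had an enhanced response.

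The question of the series was how c-Jun, a transcription factor, shapes the Schwann cells of an injured nerve. Adult mice had 1 sciatic nerve transected at the notch, and after 7 days a 10 mm piece of the distal stump and the nerve of the other side were taken. The 4 groups were uncut and cut nerve of control mice (genotype WT in the labels, CTRL in the titles) and of mutant mice (c-Jun KO), with no other treatment. Each group had 2 arrays, each of RNA pooled from nerves of 4 or 6 mice and described as independent samples. The labels name neither the allele nor the strain. In the published mouse line Jun is deleted in the Schwann cell lineage, so other cells of the nerve keep the gene. The labels speak of Schwann cells and, in another field, of schwannoma cells, but the material was a nerve segment. The Schwann cell gene Sox10 lay between 10.75 and 11.30 on the log2 scale over the 8 arrays, and the macrophage gene Cd68 between 8.11 and 12.21, so markers of both kinds of cell were present. Array medians lay between 6.59 and 6.65 over all probe sets, and replicates correlated at 0.984 to 0.989 over the genes tested. The number of arrays limits the precision.

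Schwann cells that lose contact with axons switch off the myelin programme, divide, help to clear myelin and produce trophic factors and surface proteins that support regrowing axons. c-Jun, a subunit of the AP-1 dimer that binds DNA, rises in these cells after injury and opposes the myelin programme driven by Egr2. The interaction therefore asks which parts of the injury response differ in size when c-Jun is deleted from Schwann cells.

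Jun itself was measured first, since it is the deleted gene. In the uncut nerves Jun read 9.58 and 9.70 in control and 9.62 and 9.59 in mutant (log2 expression). In the cut nerves it read 11.88 and 11.96 in control and 10.39 and 10.80 in mutant. All 4 cut arrays lay above all 4 uncut arrays, and the mutant cut arrays lay below the control cut arrays. The injury response was 2.28 in control and 0.99 in mutant, and the interaction was −1.29 (SE 0.20, limma adjusted p = 0.0726), which did not pass the threshold of 0.05. A second Jun probe set gave −1.27. Whether either probe set lies in the deleted sequence was not tested, and cells other than Schwann cells can contribute Jun RNA to the segment.

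Most of the injury response had a similar size in both genotypes. Of the genes tested, 4877 were called for injury in control nerve (40.3%) and 4348 in mutant nerve (36.0%). Among 427 genes called in control with a change of at least 4-fold, the mutant response had a median of 95.4% of the control response. In 36 of these the mutant response was under 50% of that in control, and in 1 it was over 150%. Choosing instead the 384 genes called in mutant with a change of at least 4-fold, the control response had a median of 96.6% of the mutant response, and it was under 50% in 7 genes, over 150% in 11 and of opposite sign in 2. Choosing genes on one genotype favours a smaller value in the other, so both choices are given. The interaction had a median of −0.05 over all genes tested, and 60.4% of genes lay below 0.

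**Figure D1:**
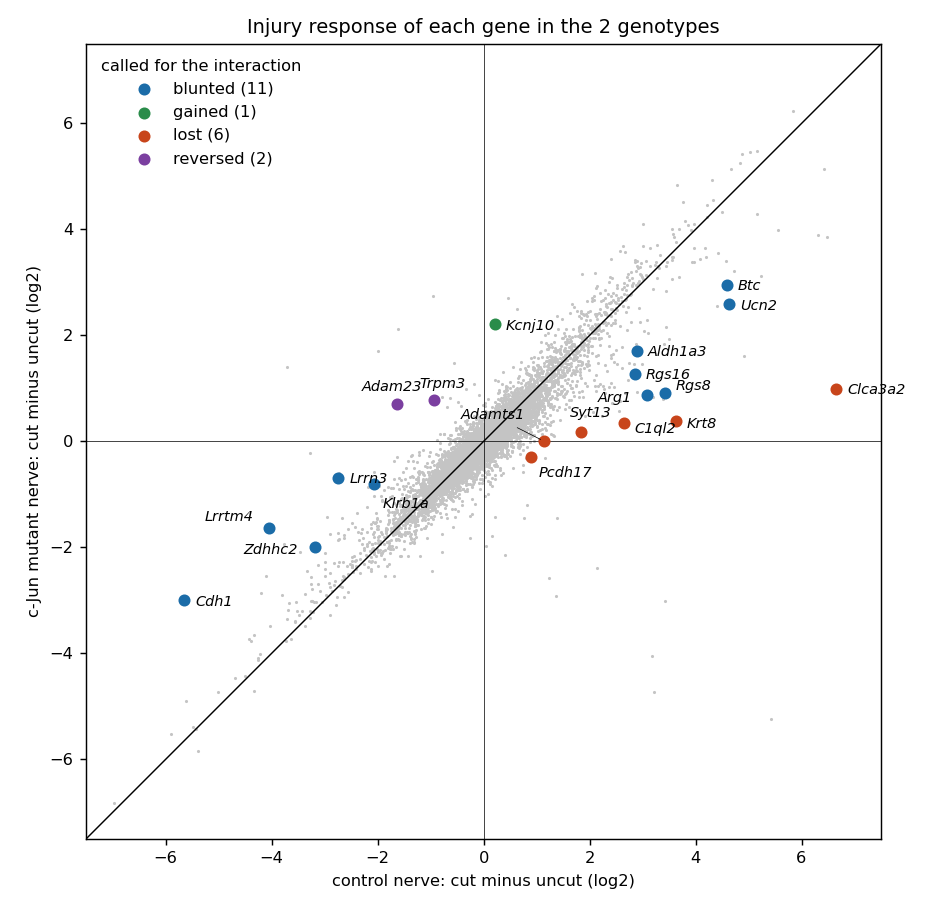
Injury response in control nerve (horizontal axis, cut minus uncut, log2) against injury response in c-Jun mutant nerve (vertical axis, log2) for each of 12093 genes tested, with the diagonal of equal responses. Most genes lie along the diagonal. The 20 called genes are coloured by class. Those whose rise in control was called lie below the diagonal, as Rgs8 does with 3.42 in control and 0.91 in mutant.

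Of the 20 called genes, 12 had a lower interaction (0.0992% of genes tested) and 8 a higher one (0.0662%). A lower value means that the mutant nerve rose less, or fell more, than the control nerve. All 12 had risen in control nerve, and 7 of the 8 others had fallen there, while Kcnj10 was not called there. This opposition is partly built in, because the control arrays enter both values. Adjusted p-values of the 20 genes ran from 0.0314 to 0.0443. The genes just outside the threshold were Igsf11, an adhesion molecule of the immunoglobulin family, with an interaction of 1.34 (adjusted p = 0.0514), and Thy1, a surface glycoprotein of neurons and fibroblasts, with −1.04 (adjusted p = 0.0536). Without adjustment 731 genes (6.045%) had p under 0.05. Over all 24162 kept probe sets 23 were called (0.0952%), and these held 15 of the 20 genes.

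Few or no genes were called when any of 7 arrays was left out. When 1 array was left out, the count was 1 without control cut array 1, 2 without control cut array 2, and 44 without mutant cut array 2, of which 16 were among the 20. It was 0 in the limma fits without control uncut array 1 or 2, mutant cut array 1, or mutant uncut array 1 or 2, where 550 to 791 genes had an unadjusted p under 0.05. Of the 20 genes, Cdh1 was called in 3 of these 8 fits, 15 genes were called in 1 and 4 genes (Arg1, Kcnj10, Pcdh17 and Ucn2) in 0. The filter left out 5 of the 20 genes in some fits. The direction was kept by all 20 genes in each alternative run.

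**Figure D2:**
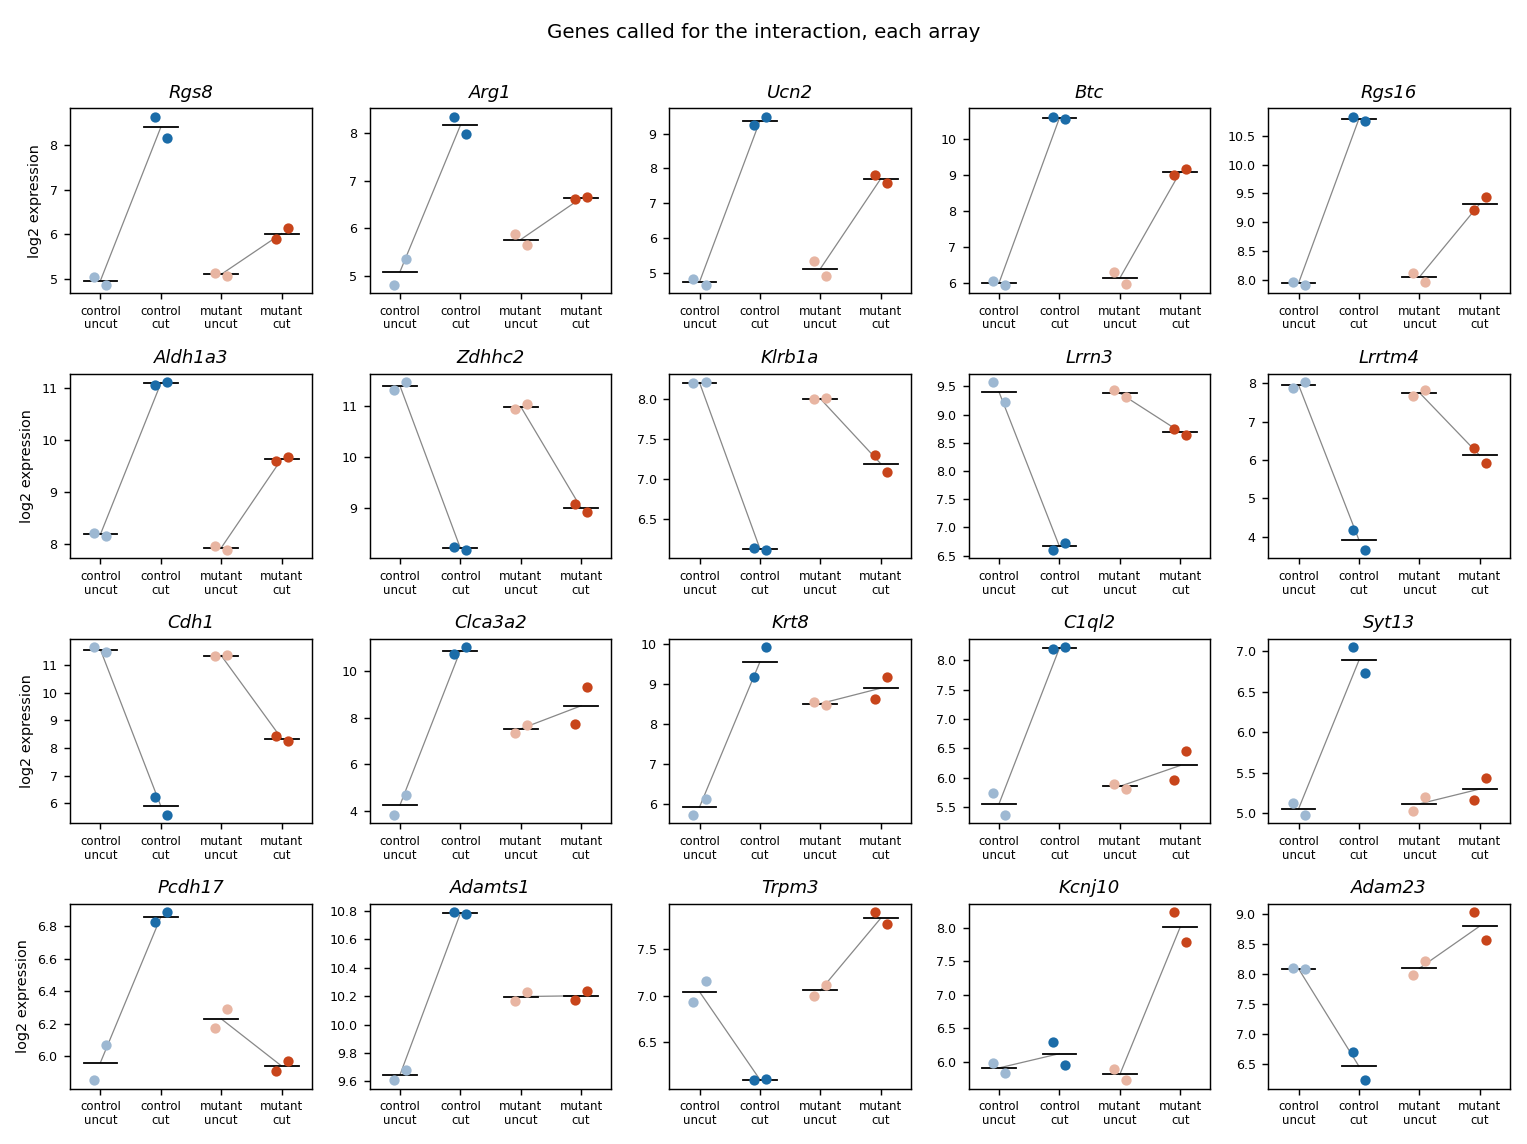
Log2 expression on each of the 8 arrays for genes called for the interaction, 1 panel a gene, with the genotype and injury state on the horizontal axis, a point for each array and a bar for each group mean. In Rgs8 the 2 control cut arrays stand at 8.62 and 8.16 while the mutant cut arrays stand at 5.90 and 6.14, and in Lrrn3 the order of the cut arrays is the opposite.

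The blunted risers were 6 genes of signalling and metabolism that rose in both genotypes and less in the mutant. They kept between 26.6% (Rgs8) and 64.3% (Btc) of the control response. In a bulk segment, fewer cells of a type and less RNA per cell cannot be told apart, which holds for every value here.

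Rgs8, which speeds up GTP hydrolysis by G protein alpha subunits, had the lowest interaction among the blunted genes. It read 5.05 and 4.88 in control uncut and 8.62 and 8.16 in control cut nerve. In mutant nerve it read 5.14 and 5.08 uncut and 5.90 and 6.14 cut. The uncut arrays were alike in both genotypes, and the cut groups did not overlap. Rgs8 rose 10.7-fold in control and 1.88-fold in mutant, and the interaction was −2.51 (95% interval −3.06 to −1.97, adjusted p = 0.0314). Rgs16, of the same family, rose from 7.97 and 7.91 to 10.83 and 10.77 in control nerve. The mutant nerves went from 8.12 and 7.97 to 9.21 and 9.43. The mutant cut arrays lay between the uncut arrays and the control cut arrays, and the interaction was −1.59 (SE 0.16, adjusted p = 0.0365). Its 2 other tested probe sets gave −1.42 and −1.50.

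Among secreted factors, betacellulin and urocortin 2 were called. Btc, a ligand of the epidermal growth factor receptor family, rose from 6.04 and 5.95 to 10.62 and 10.55 in control nerve. The mutant nerves rose from 6.30 and 5.96 to 8.99 and 9.17. It rose in both genotypes, 24.0-fold in control and 7.73-fold in mutant. The interaction was −1.64 (SE 0.19, adjusted p = 0.0365), and another probe set gave −1.56. Ucn2, a peptide of the corticotropin-releasing factor family, rose from 4.81 and 4.65 to 9.25 and 9.49 in control nerve. Mutant nerve rose from 5.33 and 4.89 to 7.81 and 7.59. Uncut control nerve was dim for Ucn2, with a mean under the 25th percentile of every array, where the summary method compresses differences. The interaction was −2.05 (SE 0.24, adjusted p = 0.0365).

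Among enzymes, arginase and a retinaldehyde dehydrogenase were called. Arg1, which splits arginine into ornithine and urea and is also made by some macrophages, rose from 4.82 and 5.36 to 8.35 and 7.98 in control nerve. Mutant nerve rose from 5.88 and 5.65 to 6.61 and 6.66. The mutant arrays lay above the control arrays in uncut nerve and below them in cut nerve. The differences were 0.68 and −1.53, and the interaction was −2.21 (SE 0.28, adjusted p = 0.0443). Of 23 macrophage genes tested none was called, which at 0.165% called over all genes is not a result about them. Their median interaction was −0.06, and their mean level was 10.3 to 10.5 on all 4 cut arrays. The part of macrophages in the Arg1 result was not tested further. Aldh1a3, which makes retinoic acid, rose from 8.21 and 8.15 to 11.06 and 11.11 in control nerve. The rise in mutant nerve was from 7.96 and 7.88 to 9.59 and 9.67, so that the mutant arrays lay below the control arrays in both states. The interaction was −1.20 (SE 0.13, adjusted p = 0.0365), and 2 other probe sets gave −1.26 and −1.36.

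The blunted fallers were 5 genes, all of them lower after the cut in both genotypes and less so in the mutant. Cdh1, which encodes E-cadherin and sits in the junctions that a myelinating Schwann cell makes with itself, had the highest interaction of the 20 genes. It read 11.65 and 11.47 in control uncut and 6.23 and 5.58 in control cut nerve. In mutant nerve it read 11.34 and 11.35 uncut and 8.43 and 8.27 cut. The mean uncut nerves of the genotypes differed by −0.21 and the cut nerves by 2.44, mutant minus control. Cdh1 fell 50.3-fold in control and 8.01-fold in mutant, and the interaction was 2.65 (SE 0.28, adjusted p = 0.0365).

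Lrrtm4 and Lrrn3 encode membrane proteins with leucine-rich repeats that are best known from neurons, where Lrrtm4 takes part in synapse organisation. Lrrtm4 fell from 7.88 and 8.03 to 4.17 and 3.66 in control nerve. The mutant nerves fell from 7.68 and 7.83 to 6.31 and 5.93. All mutant cut arrays lay above the control cut arrays, whose mean was under the 25th percentile of every array. The interaction was 2.40 (SE 0.27, adjusted p = 0.0365). Lrrn3 fell from 9.58 and 9.22 to 6.60 and 6.72 in control nerve. Mutant nerve went from 9.44 and 9.32 to 8.75 and 8.64, and thus kept 25.1% of the control response, the lowest share among blunted genes. The interaction was 2.05 (SE 0.19, adjusted p = 0.0314).

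Klrb1a belongs to a family of lectin-like receptors of natural killer cells. It fell from 8.20 and 8.21 to 6.14 and 6.12 in control nerve, and from 8.00 and 8.01 to 7.30 and 7.08 in mutant nerve. The interaction was 1.26 (SE 0.14, adjusted p = 0.0365). Of 20 markers of lymphocytes and natural killer cells 7 were tested and none was called, which at 0.165% over all genes is no result about them. The family has closely similar members, so the assignment of this probe set to Klrb1a is uncertain. Zdhhc2, which attaches palmitate to proteins, fell from 11.31 and 11.46 to 8.24 and 8.18 in control nerve. Mutant nerve fell from 10.92 and 11.03 to 9.07 and 8.91. The interaction was 1.19 (SE 0.15, adjusted p = 0.0443), and 3 other probe sets gave 0.66 to 0.93 with adjusted p from 0.35 to 0.85.

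Of the 6 genes with a lost response, C1ql2, Syt13 and Pcdh17 differed between genotypes mainly in cut nerve, Clca3a2 and Krt8 more in uncut than in cut nerve, and Adamts1 by a similar amount in both. A lost response here means that the injury was called in control and not in mutant, which does not show that the mutant did not respond.

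C1ql2, a secreted protein of the C1q family that acts at synapses, read 5.75 and 5.37 in control uncut and 8.19 and 8.22 in control cut nerve. Mutant nerve read 5.90 and 5.81 uncut and 5.96 and 6.46 cut. The control cut arrays stood apart from the 6 other arrays. The mutant response was 0.35 (adjusted p = 0.1764) and the interaction −2.29 (SE 0.26, adjusted p = 0.0365). Syt13, of the synaptotagmin family of vesicle proteins, read 5.13 and 4.98, then 7.05 and 6.73 after the cut in control. In mutant it read 5.03 and 5.20, then 5.16 and 5.43. Again only the control cut arrays were high, and the interaction was −1.65 (SE 0.21, adjusted p = 0.0443).

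Pcdh17, a protocadherin, went from 5.85 and 6.07 to 6.83 and 6.89 in control nerve. Mutant nerve went from 6.17 and 6.29 to 5.91 and 5.97. The mutant response of −0.29 had an adjusted p of 0.0721, and the interaction was −1.18 (SE 0.15, adjusted p = 0.0443). Adamts1, a metalloprotease that cleaves proteoglycans of the matrix, went from 9.61 and 9.68 to 10.79 and 10.78 in control nerve. Its mutant values were 10.17 and 10.23 uncut and 10.17 and 10.23 cut. All mutant arrays lay between the uncut and the cut control arrays. The genotypes differed by 0.55 in uncut nerve (adjusted p = 0.3993) and by −0.58 in cut nerve (adjusted p = 0.0307), and the interaction was −1.13 (SE 0.13, adjusted p = 0.0365).

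Clca3a2 and Krt8 had the lowest interactions of the 20 genes and differed from the rest in where the genotypes diverged. Clca3a2, of a family named for calcium-activated chloride conductance, read 3.81 and 4.66 in control uncut and 10.74 and 11.04 in control cut nerve. Mutant nerve read 7.35 and 7.68 uncut and 7.72 and 9.30 cut. The interaction was −5.66 (SE 0.68, adjusted p = 0.0370). Krt8, a keratin of simple epithelia, read 5.73 and 6.13, then 9.18 and 9.92 after the cut in control. In mutant it read 8.54 and 8.48, then 8.63 and 9.17. Its interaction was −3.24 (SE 0.38, adjusted p = 0.0365). For both genes the uncut mutant arrays lay above the uncut control arrays, by 3.28 for Clca3a2 and 2.59 for Krt8, although neither difference was called in uncut nerve (adjusted p = 0.3035 and 0.1019). In cut nerve the differences were −2.38 and −0.66 (adjusted p = 0.0854 and 0.5512). Uncut control nerve was dim for Clca3a2, and its close relative Clca3a1 gave −1.50 (adjusted p = 0.0884), and cross-hybridisation between these paralogs was not tested.

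Markers of glandular epithelium and milk proteins also differed between the groups, and the milk proteins differed between replicates. Of 24 such markers 15 were tested, all 15 had an interaction below 0, with a median of −3.24, and 2 were called, Clca3a2 and Krt8. The list was written with earlier results of these data known and holds both genes. Its mean level was 5.94 and 5.96 in control uncut nerve and 9.11 and 8.76 in mutant uncut nerve. In cut nerve it was 8.83 and 7.39 in control and 6.59 and 8.24 in mutant. Csn2, a milk casein, read 3.50 and 4.14 in control uncut, 11.47 and 7.03 in control cut, 13.01 and 10.33 in mutant uncut and 3.69 and 9.15 in mutant cut nerve. Its replicates differed widely in every group but control uncut. Within control cut nerve Csn2 was lower on array 2, where Clca3a2 and Krt8 were higher. Within mutant cut nerve Csn2, Clca3a2 and Krt8 were all higher on array 2. Within mutant uncut nerve Csn2 was lower on array 2, Clca3a2 was higher and Krt8 was nearly level. The Csn2 interaction of −10.67 was not called (limma adjusted p = 0.3214). Krt18, the keratin partner of Krt8, gave −3.30 (adjusted p = 0.0558), whereas Epcam, a general epithelial marker, lay between 7.53 and 7.76 on all arrays. The part of such tissue in the Clca3a2 and Krt8 results was not tested. Without control cut array 1 and mutant cut array 2, the cut arrays with more casein signal in each genotype, Clca3a2 gave −6.60 and Krt8 −3.88 (adjusted p = 0.0165 for both). That fit was chosen after seeing the data. It kept both mutant uncut arrays, which had the most milk protein signal of the arrays left in. It therefore did not remove this signal from the interaction. It called 17 genes. Of the 20 genes 14 passed its filter and 5 were called, which were Clca3a2, Krt8, Cdh1, Lrrtm4 and Adam23. The other 9 had adjusted p from 0.0768 to 0.1284, with interactions of 99.7% to 109.7% of their size with all arrays.

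**Figure D3:**
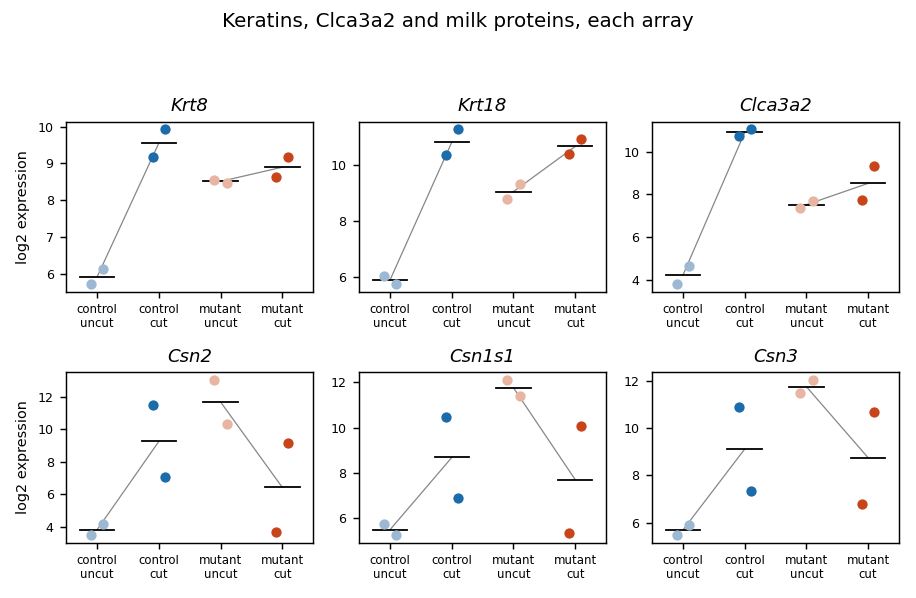
Log2 expression of genes of glandular epithelium and milk on each array, grouped by genotype and injury state, 1 panel a gene. The casein Csn2 separates replicates of one group, as with 11.47 and 7.03 in control cut nerve, while Krt8 and Clca3a2 are low on both control uncut arrays and above them on the other 6.

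The opposite responses were those of Trpm3 and Adam23, which fell in control nerve and rose in mutant nerve. Trpm3, a calcium-permeable cation channel, went from 6.93 and 7.16 to 6.09 and 6.11 in control nerve. Mutant nerve went from 6.99 and 7.12 to 7.89 and 7.77. The uncut arrays were alike (difference 0.01), and the injury was called in both genotypes, with −0.94 (adjusted p = 0.00057) and 0.77 (adjusted p = 0.0017). The interaction was 1.72 (SE 0.16, limma adjusted p = 0.0314). Other Trpm3 probe sets did not pass the filter on signal, and they differed on the reversal. Responses in control and mutant were −0.48 and 0.43, −0.51 and 0.76, and −0.07 and 0.14 where the signs were opposite. A further probe set fell in both genotypes (−1.35 and −0.39), and another rose in both (0.18 and 0.92). Adam23, a membrane protein of the ADAM family without protease activity that binds LGI proteins, went from 8.09 and 8.07 to 6.69 and 6.23 in control nerve. Mutant nerve went from 7.98 and 8.21 to 9.03 and 8.57. The interaction was 2.33 (SE 0.28, adjusted p = 0.0370). A second Adam23 probe set rose by 1.52 in mutant and changed by −0.23 in control, so the 2 probe sets differed on the fall in control.

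Kcnj10 was the only gene with a gained response. It encodes the inwardly rectifying potassium channel Kir4.1, known from glial cells. It read 5.98 and 5.83 in control uncut and 6.29 and 5.95 in control cut nerve. In mutant nerve it read 5.89 and 5.72 uncut and 8.24 and 7.79 cut. The mutant cut arrays stood above the 6 others. The response was 0.21 in control (adjusted p = 0.3685) and 2.21 in mutant (adjusted p = 9.4e-05), and the interaction was 2.00 (SE 0.25, adjusted p = 0.0443).

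Read against the direct comparison of genotypes, the differences lay mainly in the cut nerves. The absolute difference between genotypes was larger in cut than in uncut nerve for 18 of the 20 genes, the exceptions being Clca3a2 and Krt8, and in uncut nerve it was under 0.5 for 16. Control cut and mutant cut arrays did not overlap for 20 of the 20 genes, against 34.6% of all genes tested. Across all genes 132 were called for genotype in cut nerve (1.09%). In uncut nerve limma called 0, with 322 at an unadjusted p under 0.05. These comparisons share arrays with the interaction and are no independent support for it.

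Beyond single genes, 41 lists of pathways and cell types were counted, against shares over all genes of 0.0992% called lower, 0.0662% called higher and 60.4% below 0. At such shares a list of this size would mostly hold no called gene, so a count of 0 is not a result about a list. Of 19 trophic factors tested (of 31), 2 were called lower, Btc and Ucn2, and the list's median interaction was −0.42, beside −0.05 for all genes. Of 11 retinoic acid genes tested, Aldh1a3 was called lower (median −0.37). Aldh1a2, a second enzyme of retinoic acid synthesis, had −1.56 without passing (adjusted p = 0.1203). Of 18 proteases and inhibitors tested, Adamts1 was called lower, and the median was −0.61, with 15 of 18 below 0 (60.4% over all genes). Of 21 lipid-laden macrophage genes tested, Arg1 was called lower, at a list median of 0.0049.

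Higher interactions were called in lists of membrane proteins, beside 0.0662% called higher over all genes. Of 22 neural adhesion molecules tested, 3 were called higher (Lrrtm4, Adam23 and Lrrn3), and the median was 0.30. Of 20 ion channels tested, Kcnj10 and Trpm3 were called higher, at a median of 0.02. Of 21 myelin genes tested, Cdh1 was called higher, with 16 of 21 above 0 and a median of 0.26. The myelin genes had a median injury response of −2.83 in control and −2.36 in mutant. In each genotype 18 of the 21 were called lower after the cut, beside 17.5% of all genes in control and 17.8% in mutant. Gjb1, the gap junction protein of myelinating Schwann cells, had 0.96 (adjusted p = 0.0840), and Mbp, myelin basic protein, had 1.04 (adjusted p = 0.1245). Egr2, the main transcription factor of myelination, had 0.40 (adjusted p = 0.5188).

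**Figure D4:**
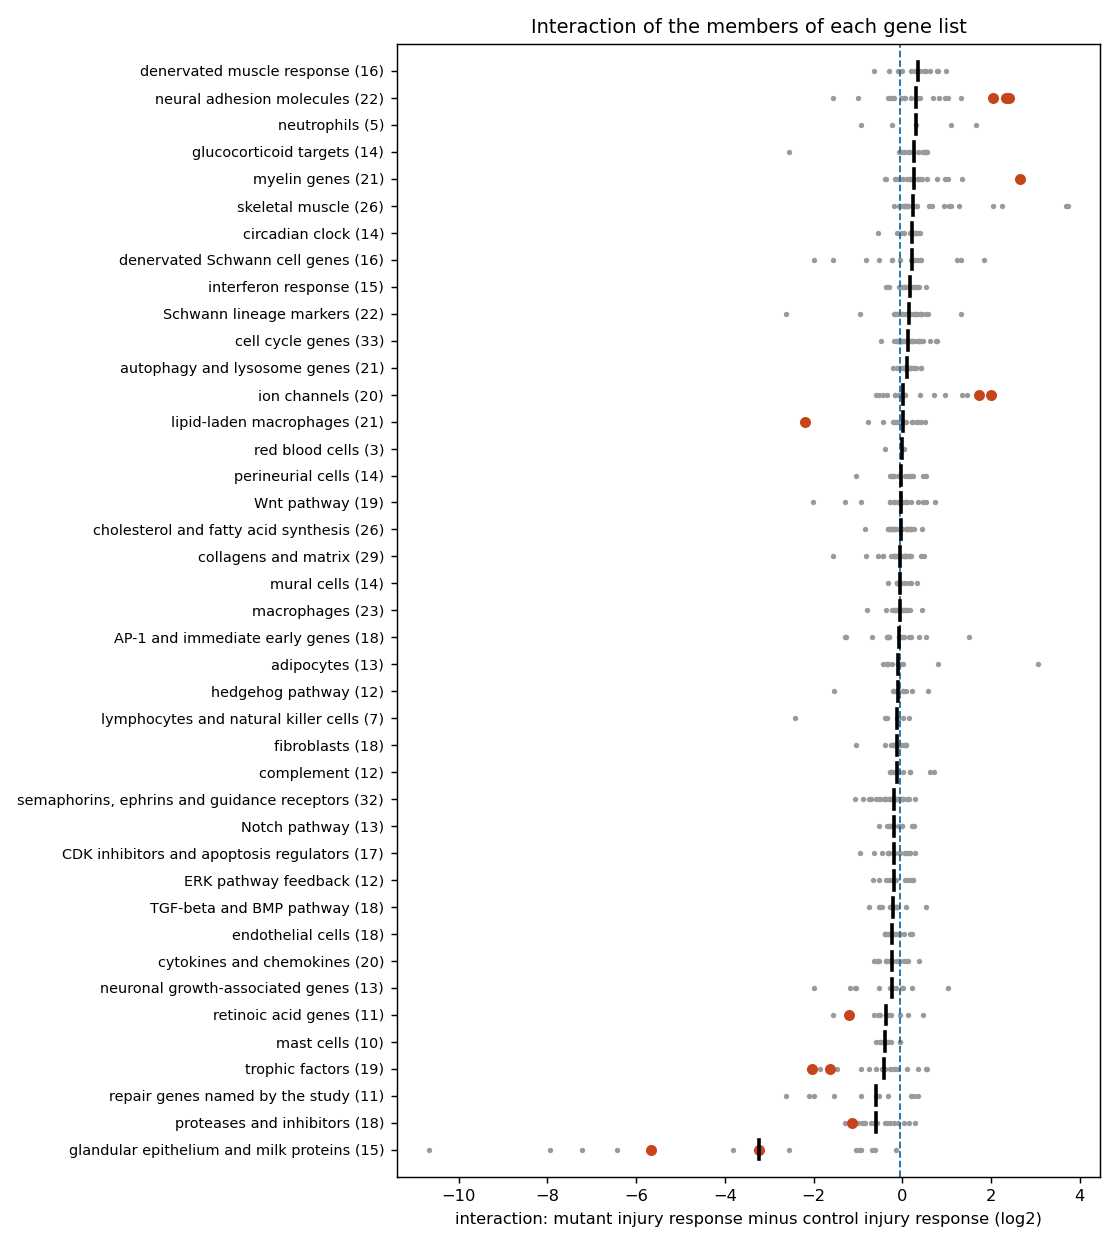
Interaction (log2, mutant injury response minus control injury response) of the genes tested in each list, 1 row a list, with a grey point for each gene, a black bar for the list median, called genes in red and the median of all genes as a dashed line. Medians lie between −0.61 for proteases and inhibitors and 0.34 for the denervated muscle response, apart from −3.24 for glandular epithelium and milk proteins.

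Repair genes that the study named did not pass the interaction test. Of the 12 genes 11 were tested and none was called by limma, with a median of −0.59 and 8 of 11 below 0 (60.4% over all genes), where the median injury response was 2.55 in control and 0.75 in mutant. The study chose these genes on the same samples, so their direction is not independent evidence. At an adjusted p under 0.1, a looser threshold that 49 genes (0.405%) meet, 3 of the 11 would be counted, Olig1, Gdnf and Gap43.

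Olig1, a transcription factor of the oligodendrocyte lineage, read 4.68 and 4.73 in control uncut and 11.46 and 10.91 in control cut nerve. Mutant nerve read 4.49 and 4.74 uncut and 8.11 and 8.85 cut. The cut groups did not overlap, and both uncut groups were under the 25th percentile of every array, as they were for Gdnf and Fgf5. The interaction of −2.62 (SE 0.37) had an adjusted p of 0.0558. Gdnf, which supports the survival of motor and sensory neurons, read 4.70 and 4.40, then 9.97 and 9.59 after the cut in control. In mutant it read 4.50 and 4.74, then 7.48 and 8.00. The interaction was −2.11 (SE 0.30, adjusted p = 0.0564). Gap43, a growth-associated membrane protein, read 6.36 and 6.19, then 9.20 and 8.46 in control. In mutant it read 6.37 and 6.14, then 6.84 and 6.80. The control cut replicates differed more than those of the other groups, and the interaction was −1.99 (SE 0.31, adjusted p = 0.0783).

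The other members lay farther from the threshold. Shh, a secreted morphogen, went from 9.38 and 9.70 to 12.31 and 12.76 in control and from 8.76 and 9.49 to 10.33 and 10.83 in mutant. Its interaction was −1.54 (SE 0.40, adjusted p = 0.3217). Lif, a cytokine of the interleukin-6 family, had −0.94 (adjusted p = 0.2671) and Bdnf, a neurotrophin, had −0.59 (adjusted p = 0.3683). Ngfr, the low-affinity neurotrophin receptor and a marker of denervated Schwann cells, rose by 3.93 in control and 3.39 in mutant, with an interaction of −0.53 (95% interval −1.11 to 0.04, adjusted p = 0.8930). Sox2, a transcription factor of immature Schwann cells, rose by 2.71 and 2.96, with an interaction of 0.25 (95% interval −0.07 to 0.57, adjusted p = 0.9620). The adhesion molecules Ncam1, L1cam and Cdh2 had 0.35, 0.19 and −0.32.

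**Figure D5:**
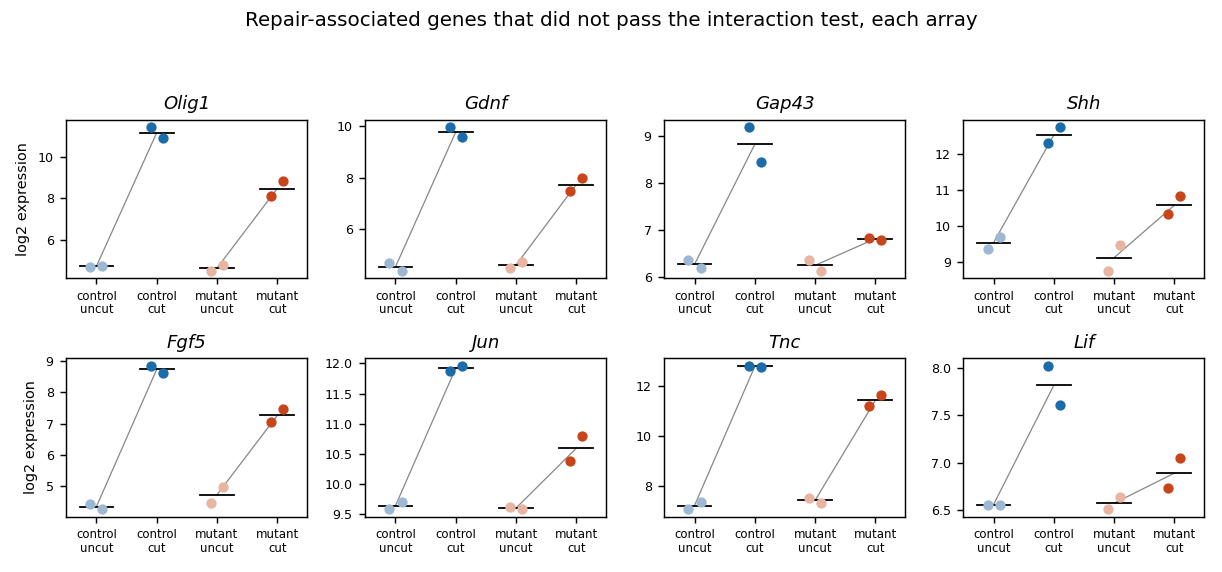
Log2 expression on each array of 8 repair-associated genes, 1 panel a gene, with a point for each array, a bar for each group mean and lines joining uncut to cut within a genotype. In Olig1 the control cut arrays stand at 11.46 and 10.91 and the mutant cut arrays at 8.11 and 8.85, and none of the 8 genes passed the interaction test.

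In all, 29 genes had an adjusted p between 0.05 and 0.1, 21 with a lower and 8 with a higher interaction. Among the lower ones were further secreted and matrix genes. Fgf5, a fibroblast growth factor, had −1.86 (adjusted p = 0.0726), and Tnc, the matrix protein tenascin C, had −1.56 (adjusted p = 0.0726). Met, the receptor of hepatocyte growth factor, had −0.87 (adjusted p = 0.0697), and Bcl2, an inhibitor of apoptosis, had −0.96 (adjusted p = 0.0666). Tgfa, another ligand of the epidermal growth factor receptor, went down after the cut in both genotypes. It fell by 0.98 on the log2 scale in control and by 2.45 in mutant, an interaction of −1.46 (adjusted p = 0.0697). A second tested Tgfa probe set changed by −0.19 in control and −0.31 in mutant. Its interaction was −0.12 (limma adjusted p = 0.9950), so the probe sets of this gene differed. Among the higher ones was Megf10, a receptor for engulfment of cell debris. Megf10 rose by 2.10 in control and 3.17 in mutant, with an interaction of 1.07 (adjusted p = 0.0558), a value in the direction of an enhanced response that did not pass. Chl1, an adhesion molecule related to L1cam, had 1.32 (adjusted p = 0.0726), and Fabp7, a fatty acid binding protein of glial precursors, had 1.22 (adjusted p = 0.0794).

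Further pathways held no called gene, which at 0.165% called over all genes is not a result about them. None was called of 18 AP-1 and immediate early genes, at a median of −0.08, or of 26 cholesterol and fatty acid genes, at −0.03. The cholesterol genes had a median injury response of −1.71 in control and −1.88 in mutant. Of 33 cell cycle genes tested, 32 were called higher after the cut in each genotype, beside 22.8% of all genes in control and 18.1% in mutant. Their median responses were 2.25 and 2.19, and none was called for the interaction (median 0.12). The hedgehog, Wnt, Notch and ERK feedback lists held none, with medians of −0.11, −0.03, −0.18 and −0.19. Of 18 genes of the TGF-beta and BMP pathway 16 lay below 0 (median −0.20), beside 60.4% of all genes. Of 32 semaphorins, ephrins and guidance receptors 26 did (median −0.18). None of either list was called as a gene. When probe sets were tested instead, a probe set of the semaphorin Sema3e was called, with an interaction of −1.35 (limma adjusted p = 0.0451).

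The marker lists of other cell types are given by their levels and medians, since at 0.165% called over all genes their lack of a called gene is not a result. The macrophage genes had median injury responses of 1.85 in control and 1.72 in mutant. Of the 23, 21 and 19 were called higher after the cut, beside 22.8% and 18.1% of all genes. Medians of the interaction were −0.12 for 18 fibroblast genes, −0.23 for 18 endothelial genes and −0.38 for 10 mast cell genes, of which 10 lay below 0. Skeletal muscle, which lies beside the nerve, had a median of 0.23 over 26 genes with 23 above 0. The mean level of the muscle list was 11.6 and 12.1 in control cut, 12.2 and 12.4 in mutant cut, 10.3 and 10.6 in control uncut and 10.6 and 9.83 in mutant uncut nerve. The part of these cell types in the results above was not tested. None of 16 denervated Schwann cell genes was called, at a median of 0.22, and Gpr37l1, an orphan receptor of glia, had 1.85 (adjusted p = 0.1103).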

How the data were processed

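Whole-segment RNA was measured on 8 Affymetrix 1-colour arrays, 2 in each of 4 groups taken from the titles. The deposited values are log2 expression values for 45101 probe sets, made by the authors with RMA and the affy package per the submitters' processing notes. RMA corrects background, equalises array distributions and compresses differences of dim probe sets. Their versions are not stated in the labels. Scan batches and detection calls were not used here. Probe sets were kept if above their array's median on at least 2 arrays (24162). Of these, 20943 had 1 symbol in the platform annotation, and the one with the highest mean stood for a gene, giving 12093 genes. With R 4.3.3 and limma 3.58.1, a model with 1 mean for each group was fitted to the 8 arrays together (4 residual and 3.59 prior degrees of freedom). Genes were called at a two-sided Benjamini-Hochberg adjusted p under 0.05 over all genes tested. The p-values come from limma.

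Blunted, enhanced and reversed genes were called for injury in both genotypes, with a smaller, larger or opposite mutant response. Lost and gained genes were called in control or in mutant alone. The genes named were Jun, all called genes and, for some lists, other members. The rule for a list without a called member was the 2 with the largest absolute interaction, but these are not given for every list. Genes just outside the threshold and further repair genes were added after their values were seen. The members and the 41 lists were chosen with earlier results of these data known. Promoter sequences are not reported here. Alternatives were other filters, probe set rules, normalisations, variance models, replicate blocks, a looser threshold and each array left out, with 1 more chosen after seeing the data.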

Additional observations from a re-analysis of the deposited data

Results flagged for a closer look

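The injury response differed between control and mutant nerve, by limma's test of the difference itself, for 20 genes. For Trpm3 (interaction 1.72) and Adam23 (interaction 2.33) the genotypes moved in opposite directions on the probe set that stood for each gene. The control cut arrays lay below the control uncut arrays and the mutant cut arrays above the mutant uncut arrays. Other probe sets of both genes differed on this, as given above. Among probe sets that name no single gene, 4 were called when all 24162 kept probe sets were tested, with interactions of −3.72, −1.94, −1.32 and 1.61. The platform annotation gives 1 of these several symbols and the other 3 none, so they belong to no list or count of genes above. The probe sets with −3.72 and −1.32 rose less in mutant nerve, by 4.58 and 2.10 in control and by 0.86 and 0.78 in mutant. The probe set with −1.94 changed by −2.16 in control and −4.10 in mutant, a larger fall in the mutant. The probe set with 1.61 changed by −0.002 in control and 1.61 in mutant.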

How the results depend on the processing

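All 20 genes kept the sign of the interaction under each alternative run, and the 12 other tested probe sets of 7 of these genes had the same sign, 1 of them called. The count of called genes was 33 without the filter and 11 with a filter at the 75th percentile. It was 33 with probe sets of a gene averaged, 31 with a trended and robust variance and 49 at an adjusted p under 0.1. Only 11 of the 20 genes entered the filter at the 75th percentile, and those 11 stayed called. Averaging kept 18 of the 20 and lost the calls of Btc and Zdhhc2. The trended and robust variance kept 17 and lost those of Clca3a2 (limma adjusted p = 0.1214), Pcdh17 and Syt13. With median centring 29 were called, with a further quantile normalisation 23 and with array weights 20. Over probe sets 23 were called, which held 15 of the 20 genes. Arg1, Kcnj10, Pcdh17, Syt13 and Zdhhc2 were not called there, with limma adjusted p from 0.0609 to 0.0765. Probe sets of Celf4, Cdk5r1 and Sema3e were called there, with interactions of −2.28, −2.52 and −1.35. Leaving out 1 array gave 0 to 44, where the lone array of a group is assumed to vary like those of the other groups. Replicate numbers are shared by the groups, but the labels do not say that they mark the same mice, and there are only 2 numbers. The numbers were therefore not taken as pairs. Replicate differences correlated at 0.02 to 0.34 between the 6 pairs of groups. Cut and uncut nerve of the same genotype, which could share mice, gave 0.18 in control and 0.15 in mutant. With so few arrays these values do not settle whether the numbers mark pairs. With the replicate block 25 genes were called, of which 17 were among the 20, the calls of Arg1, Syt13 and Zdhhc2 being lost. With the replicate block within genotype 9 were called, of which 6 (Cdh1, Clca3a2, Krt8, Kcnj10, Rgs8 and Syt13) were among the 20, and the other 14 had adjusted p from 0.0532 to 0.1277. Leaving out the 2 cut arrays in which milk proteins were higher, an alternative chosen after seeing the data, gave 17, of which 5 were among the 20.

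For injury, probe sets as units gave 8436 calls in control and 7242 in mutant. Leaving out 1 array gave 3394 to 4719 in control and 2744 to 4248 in mutant, and leaving out both milk arrays gave 2765 in mutant. Genotype in cut nerve had 216 calls at an adjusted p under 0.1, 12 to 112 with 1 array left out and 23 without both milk arrays. Genotype in uncut nerve had 1 over probe sets, 1 with the mean of probe sets, 4 with the replicate block, 0 to 2 with 1 array left out and 10 without both milk arrays.

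Interactions of some marker genes changed sign. With 1 array left out Ccr2 lay between −0.21 and 1.08, S100a9 between −0.12 and 2.33, Cnn1 between −0.69 and 0.048, Alas2 between −1.61 and 0.83, and Slc4a1 between −1.02 and 1.11. Without both milk arrays Ccr2 was −0.42, Cnn1 0.019, Myh3 −0.30 and Alas2 0.23. The mutant injury response of Adamts1 lay between −0.024 and 0.036 with 1 array left out and was −0.024 without both milk arrays. The cause was not tested. With 2 arrays a group and no detection calls, the signal of dim genes such as Clca3a2, Ucn2 and Lrrtm4 limits the size of their changes.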
